A study of Homo sapiens with 2 samples.

Results

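The G1 cyclins CCND1, CCND2, CCND3, CCNE1 and CCNE2, the kinase genes CDK4 and CDK6, the retinoblastoma gene RB1 and the transcription factor genes E2F1 and E2F3 form the core of the switch that commits a cell to DNA synthesis. These 10 genes, out of 20037 protein-coding genes, were chosen by name, and every RUNX2 and MTA1 peak inside them or within 50 kb of either end was collected. The peaks came from untreated MDA-MB-231 cells, an established human triple-negative breast cancer line. RUNX2, a runt-domain transcription factor of the bone lineage, and MTA1, a component of NuRD, which remodels nucleosomes and removes acetyl groups from histones, were each profiled in 1 library to find their target genes. The labels name the assay as CUT&Tag, in which an antibody tethers a transposase to the chromatin around its target. There were 61700 RUNX2 peaks and 42683 MTA1 peaks on chromosomes 1 to 22, X and Y, and each peak carried a score whose scale was not stated. No repeat library and no control library was analysed here, so no difference below could be tested against replicate error, and the read depth behind the peaks is unknown. Peak lists measure no expression, so the identity of the cells could not be checked against marker genes.

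In early G1, mitogen signals raise the D-type cyclins, which bind and activate CDK4 and CDK6. These kinases phosphorylate the RB1 protein, which otherwise holds E2F factors in check at their promoters, and the freed E2F1 and E2F3 switch on cyclin E and the genes of DNA replication. Cyclin E with CDK2 then phosphorylates RB1 further and closes a positive loop. RUNX2 binds DNA at a short TGTGGT or TGCGGT core, whereas MTA1 reaches chromatin mainly through partner proteins.

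Promoters with shared start peaks, and 1 promoter under no peak, are given first. RefSeq (GRCh38.p14) promoters were held for 7 of the 10 genes, with 11 promoters between them. CCND1, CCND2 and CCNE2 had no entry, and the RB1 entry lay near the far end of the gene. Each sequence below is the 250 bases before an annotated start, written 5′ to 3′ on the strand of the gene. The first was shown because it lay whole under the highest-ranked RUNX2 and MTA1 start peaks among the 10 genes (CDK4, chr12:57752311-57752560, minus strand). The E2F1 promoter (chr20:33686386-33686635, minus strand) and the promoter of the first E2F3 start (chr6:20401629-20401878, plus strand) also carried peaks of both libraries. The CCND3 promoter (chr6:41941809-41942058, minus strand) belongs to an internal start with peaks of both libraries. The last is shown for contrast, since neither library had a peak over it (CDK6, chr7:92836574-92836823, minus strand). Capitals mark CACGTG, the E-box core, in CDK4, and matches to the E2F core on either strand in E2F1 and E2F3.
CDK4: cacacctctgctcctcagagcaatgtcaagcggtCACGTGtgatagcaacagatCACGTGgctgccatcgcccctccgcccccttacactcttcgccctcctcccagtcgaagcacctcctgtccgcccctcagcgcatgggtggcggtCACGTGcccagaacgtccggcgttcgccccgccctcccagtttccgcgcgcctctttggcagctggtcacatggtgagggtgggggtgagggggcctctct
E2F1: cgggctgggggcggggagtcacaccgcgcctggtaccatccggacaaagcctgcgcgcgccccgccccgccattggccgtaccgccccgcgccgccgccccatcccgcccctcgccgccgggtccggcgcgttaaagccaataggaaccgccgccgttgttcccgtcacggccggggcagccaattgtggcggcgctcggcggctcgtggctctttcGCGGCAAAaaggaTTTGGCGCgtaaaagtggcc
E2F3: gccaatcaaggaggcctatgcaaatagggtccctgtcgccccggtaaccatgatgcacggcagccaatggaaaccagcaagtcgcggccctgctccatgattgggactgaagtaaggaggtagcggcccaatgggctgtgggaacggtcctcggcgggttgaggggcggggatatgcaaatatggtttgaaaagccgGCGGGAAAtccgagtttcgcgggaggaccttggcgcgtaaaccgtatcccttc
CCND3: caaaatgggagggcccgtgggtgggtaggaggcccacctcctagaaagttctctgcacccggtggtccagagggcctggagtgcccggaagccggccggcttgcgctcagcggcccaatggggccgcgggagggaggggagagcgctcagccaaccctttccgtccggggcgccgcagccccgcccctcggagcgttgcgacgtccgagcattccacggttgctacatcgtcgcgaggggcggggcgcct
CDK6: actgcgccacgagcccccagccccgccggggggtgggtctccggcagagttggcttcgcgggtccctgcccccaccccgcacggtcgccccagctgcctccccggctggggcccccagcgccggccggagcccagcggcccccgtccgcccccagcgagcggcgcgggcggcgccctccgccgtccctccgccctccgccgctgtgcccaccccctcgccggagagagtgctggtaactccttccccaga

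The E2F core was searched as TTTCGCGC, TTTGGCGC, TTTCCCGC and TTTGCCGC on both strands. The genes of the E2F factors themselves held the only matches among the 11 promoters. E2F1 had 2, beginning 33 and 20 bases before its start, and the first E2F3 promoter had 1, beginning 53 bases before its start. Of all 35116 promoters of the same length, 2.79% held at least 1 match and 0.122% held 2 or more. The RUNX core, searched as TGTGGT and TGCGGT on both strands, was in 0 of the 11 promoters and in 16.3% of all promoters. The E-box search was added after the sequences were seen. CDK4 held 3 copies, beginning 216, 196 and 101 bases before its start, and the second E2F3 promoter held 1. At least 1 copy was in 6.34% of all promoters and 3 or more were in 0.0797%. These matches describe letters in the windows, not bound sites.

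In all, 90 RUNX2 and 64 MTA1 peaks lay in or near the 10 genes, over 1706 kb of genes and flanks. Of the RUNX2 peaks, 29 overlapped one of the 10 genes, 17 lay within 3 kb of a start, and 56 were outside the gene and not near a start. Of the MTA1 peaks, 25 overlapped one of the genes, 15 lay within 3 kb of a start, and 33 were outside and not near a start. Many flanking peaks sat at other genes: the nearest coding start belonged to one of the 10 genes for 48 of the 90 RUNX2 peaks and 34 of the 64 MTA1 peaks. Each of the 10 genes had a peak of each library in its window, but so did 90.8% of all protein-coding genes for RUNX2 and 86.6% for MTA1. For start peaks the shares at the 10 genes stood farther from those of all genes. These genes were few and were chosen with earlier results of these data known. A RUNX2 peak lay within 3 kb of a start in 9 of the 10 genes, against 57.9% of all protein-coding genes, and an MTA1 peak in 8, against 58.0%. Both libraries had one in 8 genes, against 50.7%, and neither had one in 1 gene, CCND2, against 34.9%. Where the reference gave no strand (CCND1, CCND2 and CCNE2), a peak at either end was counted, as for all genes without one. Among genes with a start in the promoter table, 7 of 7 had a RUNX2 start peak (59.2% of all such genes), 6 had an MTA1 start peak (59.9%) and 6 had both (52.6%). Of those 7, CDK6 was the gene without an MTA1 start peak. A start peak with over 75% of its own list below it was present in 5 of the 10 genes for RUNX2, against 25.9% of all genes, and in 6 for MTA1, against 28.8%.

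**Figure D1:**
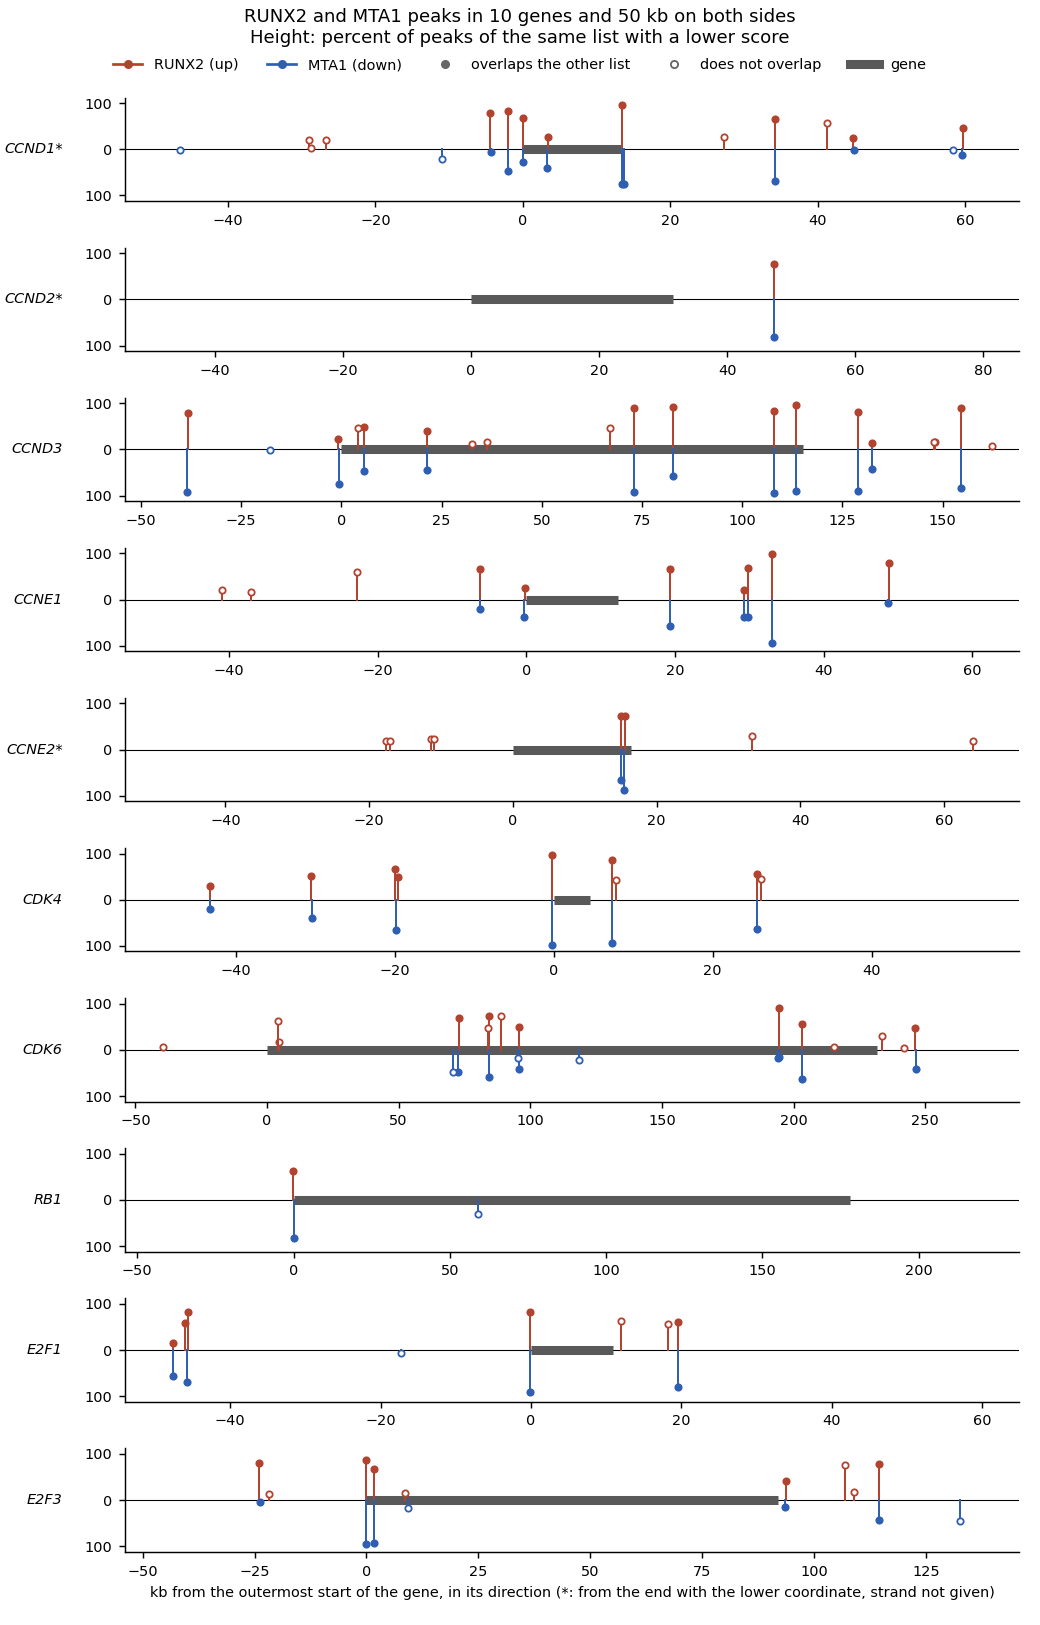
Peaks of both libraries at each of the 10 genes. The horizontal axis is the distance in kb from the outermost start of the gene in its direction, or from its lower-coordinate end for genes marked with an asterisk, and the height is the percent of peaks of the same list with a lower score, RUNX2 upward and MTA1 downward. Filled points overlap a peak of the other list, open points do not, and the grey bar is the gene. CCND2 has 1 shared pair far past its end, RB1 has its shared pair at the start, and CDK6 has 10 RUNX2 and 9 MTA1 peaks inside the gene.

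The D-type cyclins differed widely from one another. CCND1 (chr11:69641156-69654474), the cyclin often amplified in breast cancer, had 13 RUNX2 and 12 MTA1 peaks in its window. Per 100 kb of window this was 11.5 RUNX2 peaks, a density above 97.6% of protein-coding genes, and 10.6 MTA1 peaks, above 97.9%. Some of these peaks, in both lists, were nearest to the starts of the neighbouring genes LTO1 or FGF19. They included an overlapping pair centred 37 bp (RUNX2) and 26 bp (MTA1) from the LTO1 start. CCND3 (chr6:41934933-42050035), the D cyclin prominent in lymphoid cells, had 18 and 12 peaks, or 8.37 and 5.58 per 100 kb. CCND2 (chr12:4273762-4305353) had 1 peak of each library, or 0.76 per 100 kb, which was above only 13.3% of genes for RUNX2 and 19.8% for MTA1. With all peaks counted, CCND1 was thus the densest of the D cyclins and CCND2 nearly empty in both lists. For MTA1 the place of CCND1 rested on weaker peaks, and 6 of its 12 had the narrowest width. With the median score as the minimum, CCND1 kept 3 MTA1 peaks in 113 kb and CCND3 kept 8 in 215 kb. For RUNX2 they kept 6 and 7. After a cut to the top 10000 scores per list, CCND1 kept 1 RUNX2 and 0 MTA1 peaks, against 5 and 6 at CCND3. The copy number of these regions in the line was not measured, and its part in the densities was not tested.

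At CCND1 the strongest RUNX2 peak was not at the lower-coordinate end but over the other end of the gene. It spanned chr11:69654459-69654868 and overlapped the end of the annotated span, with a score of 34.5 and a score above 95.6% of the RUNX2 list. That percent of lower-scoring peaks in the same list is called the rank from here on, and only ranks are compared between the libraries. A pair of MTA1 peaks, chr11:69654501-69654653 and chr11:69654748-69654938, overlapped this RUNX2 peak, each with a score of 12.7 and a rank of 74.2. At the lower-coordinate end, a RUNX2 peak of rank 68.1 (chr11:69641081-69641191) overlapped an MTA1 peak of rank 27.7 (chr11:69641111-69641226). A further pair was centred 2013 bp (RUNX2) and 2021 bp (MTA1) outside that end, with ranks of 82.9 for RUNX2 (chr11:69639035-69639251) and 47.5 for MTA1 (chr11:69639018-69639252). RUNX2 outranked MTA1 in all 4 overlapping pairs within 3 kb of a CCND1 end, with a median difference (MTA1 minus RUNX2) of -28.4 rank points.

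CCND3, which is read from the higher coordinate to the lower, carried shared peaks at starts and inside the gene. At an internal start, a RUNX2 peak of rank 84.3 (chr6:41941843-41942237) covered 216 of the 250 upstream bases printed above, and an MTA1 peak of rank 94.9 (chr6:41941808-41942236) covered all of them. This MTA1 peak was the highest-scoring one in the CCND3 window. The highest RUNX2 peak lay 2706 bp past the most downstream start, at chr6:41936358-41936640, with a score of 33.3 and a rank of 95.2. It overlapped an MTA1 peak of rank 89.7 (chr6:41936371-41936662). Farther into the gene, 25463 and 35161 bp upstream of the nearest start by the RUNX2 peaks, lay a pair with ranks of 91.5 and 57.1 and a pair with ranks of 89.2 and 93.1 for RUNX2 and MTA1. The outermost start was weaker: a RUNX2 peak of rank 22.6 (chr6:42050729-42050839) overlapped an MTA1 peak of rank 75.2 (chr6:42050494-42050905), and both were nearer to the start of the neighbouring TAF8. A RUNX2 peak of rank 45.3 that lay 2880 bp inside a start (chr6:42045700-42045917) had no MTA1 partner.

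CCND2 had no peak of either library in the gene, within 3 kb of either end or within 10 kb. Its single pair, chr12:4320846-4321320 for RUNX2 (score 12.8, rank 76.3) and chr12:4320978-4321332 for MTA1 (score 15.4, rank 80.6), lay 15730 and 15802 bp past its higher-coordinate end, at the start of TIGAR, a regulator of glycolysis. The CCND2 window therefore held its only peaks at another gene.

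The E-type cyclins, which activate CDK2 at the end of G1, both had shared start peaks, of low rank at CCNE1 and higher rank at CCNE2. CCNE1 (chr19:29811991-29824312) had 10 RUNX2 and 7 MTA1 peaks in its window, but 0 of either inside the gene. At its start a RUNX2 peak of the narrowest width in its list, 99 bp (chr19:29811751-29811849, rank 24.5), overlapped an MTA1 peak of rank 37.2 (chr19:29811523-29811795). Its strongest signal was elsewhere, 33065 bp past the start and 20744 bp past the end of the gene. There the highest-ranked RUNX2 peak of all 90 (chr19:29844802-29845311, score 46.8, rank 98.2) overlapped an MTA1 peak of rank 94.8 (chr19:29844824-29845289, score 29.0). No gene was annotated under this pair, and CCNE1 held the nearest coding start. All 7 MTA1 peaks at CCNE1 overlapped a RUNX2 peak.

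CCNE2 (chr8:94880224-94896693) had 8 RUNX2 peaks and 2 MTA1 peaks. The only shared ones were centred 923 to 1457 bp inside its higher-coordinate end. One RUNX2 peak (chr8:94895108-94895364, rank 72.4) overlapped an MTA1 peak of rank 64.8 (chr8:94895124-94895389), and the next (chr8:94895673-94895867, rank 72.0) overlapped an MTA1 peak of rank 88.1 (chr8:94895570-94895860). Both pairs were nearer to the start of the neighbouring NDUFAF6 than to that end, and the latter overlapped NDUFAF6. The remaining 6 RUNX2 peaks were unshared, and 5 of them had the narrowest width of the list.

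The genes of the G1 kinases showed opposite layouts. CDK4 (chr12:57747727-57752310), a compact gene, had 9 RUNX2 and 6 MTA1 peaks in its window and 1 of each at the gene. The start pair began at the same base and ended 1 base apart, at chr12:57752260-57752712 for RUNX2 (score 38.1, rank 96.6) and chr12:57752260-57752713 for MTA1 (score 43.6, rank 98.7). Both covered the whole printed promoter with its E-box copies. This was the highest-ranked MTA1 peak of all 64 and, among start peaks of the 10 genes, the highest-ranked RUNX2 peak. The other peaks of the CDK4 window lay at neighbours, the strongest at the start of TSPAN31, with ranks of 86.3 for RUNX2 and 93.7 for MTA1. All 6 MTA1 peaks of the window were shared.

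CDK6 (chr7:92604921-92836573), a long gene, had 14 RUNX2 and 10 MTA1 peaks, of which 10 and 9 were inside it. Neither of its promoter windows held a base of a peak. The RUNX2 peaks counted at its start lay 1747 and 2016 bp past the inner start (chr7:92832132-92832293, rank 61.9, and chr7:92831894-92831992, rank 16.9) and were unshared. The nearest MTA1 peak to a CDK6 start was 68033 bp past it. Its strongest RUNX2 peak was deep in the gene, 191732 bp past the nearest start, at chr7:92642018-92642436 (score 23.9, rank 90.4), where the lncRNA LOC112268009 is also annotated. The MTA1 peaks it overlapped ranked 14.9 and 16.9. The highest MTA1 peak at CDK6, chr7:92633234-92633595, had a score of 9.74 and a rank of 63.4 and overlapped a RUNX2 peak of rank 55.5. Peak density was near the middle of all genes, at 4.22 RUNX2 and 3.02 MTA1 peaks per 100 kb, above 57.8% and 57.4% of genes.

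RB1 (chr13:48303751-48481890), the pocket protein that restrains E2F, had its shared pair at its outer start and little else across 278 kb of window. The RUNX2 peak (chr13:48303553-48303834, score 8.60, rank 62.5) lay wholly within the MTA1 peak (chr13:48303433-48304015, score 16.4, rank 82.4), and both also overlapped the divergent lncRNA RB1-DT. One more MTA1 peak, of rank 30.5, lay 59.1 kb into the gene. The window held 0.36 RUNX2 and 0.72 MTA1 peaks per 100 kb, above 9.88% and 18.9% of genes. RB1 thus joined a shared start peak with one of the sparsest windows of the 10 genes.

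The E2F genes carried shared peaks directly over their starts. At E2F1 (chr20:33675477-33686385) the RUNX2 peak (chr20:33686441-33686668, score 15.5, rank 81.5) covered 195 of the 250 promoter bases and the MTA1 peak (chr20:33686336-33686711, score 21.9, rank 89.8) covered all 250. The RUNX2 peak ended upstream of the E2F matches, whereas the MTA1 peak spanned them. The E2F1 window held 7 RUNX2 and 5 MTA1 peaks, and its highest RUNX2 peak, chr20:33731944-33732130 (score 15.6, rank 81.6), lay 45652 bp upstream at the start of ZNF341. At E2F3 (chr6:20401879-20493714) both starts had a shared pair. The first pair was chr6:20401554-20401875 for RUNX2 (score 19.96, rank 87.1) and chr6:20401524-20401874 for MTA1 (score 31.1, rank 95.7). The second was chr6:20403421-20403534 for RUNX2 (rank 67.7) and chr6:20403313-20403609 for MTA1 (rank 92.4). At all 3 E2F starts MTA1 thus ranked higher in its list than RUNX2 did in its own. The annotation also places LOC124901482, a protein-coding model, under the first E2F3 pair.

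**Figure D2:**
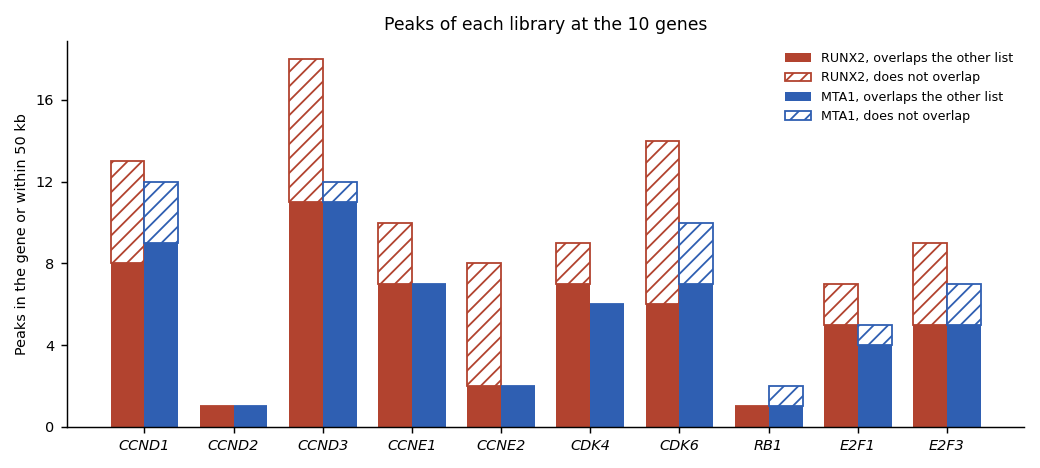
Number of RUNX2 and MTA1 peaks in each gene or within 50 kb of it. The vertical axis counts peaks, filled bars are peaks that overlap the other list by at least 1 bp and hatched bars are those that do not. CCND3 holds the most RUNX2 peaks, 18, while all MTA1 peaks at CCND2, CCNE1, CCNE2 and CDK4 overlap a RUNX2 peak.

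Peak density in the windows exceeded the median of all protein-coding genes in 8 of the 10 genes for RUNX2 and in 7 for MTA1. In the gene spans alone, without flanks, 5 of the 10 exceeded it for RUNX2 and 7 for MTA1, and CCND2, CCNE1 and E2F1 had no RUNX2 peak overlapping the gene. The median over the 10 genes was 6.59 RUNX2 and 4.08 MTA1 peaks per 100 kb, and over all genes 3.55 and 2.58. With the flanks, the genes below the RUNX2 median were CCND2 and RB1, and CCNE2 joined them for MTA1, at 1.72 per 100 kb.

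Of the RUNX2 peaks at the 10 genes, 53 of 90 (58.9%, 95% Clopper-Pearson interval 48.0 to 69.2%) overlapped an MTA1 peak, and 45.4% of the whole RUNX2 list did. Of the MTA1 peaks, 53 of 64 (82.8%, 71.3 to 91.1%) overlapped a RUNX2 peak, and 65.5% of the whole MTA1 list did. The intervals cover counting error over peaks only, and peaks at 1 gene are not independent. When 50% of both peaks had to overlap, the shares at the 10 genes came close to those of the lists, at 37.8% against 34.9% for RUNX2 and 53.1% against 50.5% for MTA1. Within 3 kb of starts, 14 of 17 RUNX2 and 15 of 15 MTA1 peaks were shared, against 70.2% and 74.0% of all peaks within 3 kb of a coding start. High-ranked peaks were nearly all shared: 21 of 22 RUNX2 peaks and 17 of 17 MTA1 peaks of rank over 75, against 83.4% and 96.7% over the lists. The exception was a RUNX2 peak 15047 bp past the end of E2F3, of rank 75.9. Of peaks of rank under 25, 6 of 28 RUNX2 and 10 of 18 MTA1 peaks were shared, against 13.95% and 32.96%. The narrowest peaks, 99 bp for RUNX2 and 116 bp for MTA1, made up 27.8% and 26.6% of the peaks at these genes and 31.7% and 25.96% of the lists, and 3 of 25 and 8 of 17 of them were shared, against 12.4% and 28.1% of all peaks of that width.

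**Figure D3:**
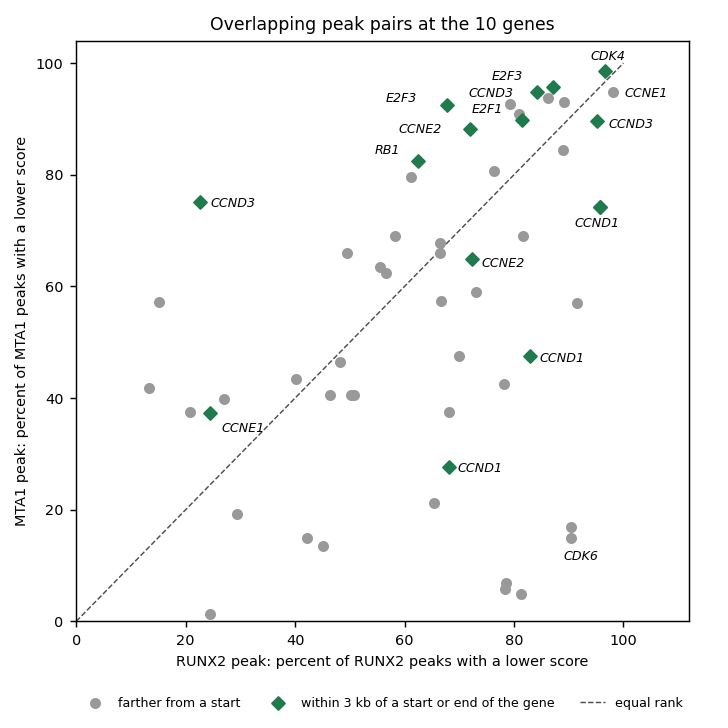
Ranks of the overlapping peak pairs at the 10 genes. Each point is 1 pair, the horizontal axis is the percent of RUNX2 peaks with a lower score and the vertical axis the percent of MTA1 peaks with a lower score; green diamonds lie within 3 kb of a start (or an end, where no strand is given), grey circles lie farther away, and the dashed line marks equal rank. The 4 CCND1 diamonds (2 of them coincide) lie below the line, and CDK4, RB1, E2F1 and both E2F3 pairs lie above it.

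The lists overlapped in 55 pairs at these genes, and MTA1 had the higher rank in 25 of them (45.5%, against 42.7% of 28440 pairs over the lists). Within 3 kb of a start, MTA1 ranked higher in 9 of 15 pairs, with a median difference (MTA1 minus RUNX2) of 8.25 rank points, against 57.3% of pairs and 2.86 points at all coding starts. Farther from the starts of these genes it ranked higher in 16 of 40 pairs, with a median of -5.22 points. Some of those pairs lay at starts of neighbouring genes. Over the lists, pairs away from every coding start gave 34.4% and -8.65 points, so these values are not like for like. Without CCND1, MTA1 ranked higher in 9 of 11 start pairs. The 4 CCND1 pairs, taken at either end because no strand was given, all leaned to RUNX2. In them 1 RUNX2 peak, at the higher-coordinate end, entered more than 1 pair. The remaining pairs with the higher RUNX2 rank were 1 at CCND3 and 1 at CCNE2. Leaving CCND1 aside was chosen after its values were seen.

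Other genes of the same machinery gave a wider view. The list of 22 held CDK2, the cyclin A gene CCNA2, the remaining E2F, DP and pocket protein genes, CDC25A, the SKP2 and CKS1B genes of p27 destruction, and the CDK inhibitor genes. A RUNX2 start peak was present in 19, an MTA1 start peak in 19 and both in 18, against 57.9%, 58.0% and 50.7% of all protein-coding genes. The highest-ranked RUNX2 peaks within 3 kb of a start were at CDKN2D (97.5), which encodes an INK4 inhibitor of CDK4 and CDK6, at CKS1B (94.7) and at CDK2 (94.4). The CDKN2D peak lay apart from, and downstream of, the highest MTA1 start peak of that gene, but each overlapped some peak of the other list. The highest-ranked MTA1 start peaks were at SKP2 (99.7), CDK2 (98.1) and the phosphatase gene CDC25A (97.7). The genes with no start peak of either library were CDKN2A and CDKN2B, neighbouring INK4 inhibitor genes, which had 0 peaks of either library within 50 kb as well. This line is known to carry a homozygous deletion at that locus, and a peak list cannot tell unbound DNA from DNA that is not there.

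Known E2F targets, mostly genes of DNA replication and nucleotide synthesis, were counted in the same way. Of 20 genes, 19 had a RUNX2 start peak, 20 an MTA1 start peak and 19 both, against the same 57.9%, 58.0% and 50.7% of all protein-coding genes. The highest-ranked RUNX2 start peaks were at the helicase gene MCM7 (99.7), the sliding clamp gene PCNA (95.6) and the origin-licensing gene CDC6 (95.5). For MTA1 they were at the helicase gene MCM3 (99.1), PCNA (97.9) and the mitotic phosphatase gene CDC25C (96.6). The MTA1 peak at PCNA lay apart from the highest RUNX2 start peak of that gene but overlapped another RUNX2 peak. The CDK4 start pair, with ranks of 96.6 and 98.7, lay in the same range as these peaks, whereas the CCNE1 start pair ranked 24.5 and 37.2. Over all E2F targets with one, the highest start peak ranked from 4.94 to 99.7 for RUNX2 and from 38.4 to 99.1 for MTA1, so CCNE1 lay within the RUNX2 range and just under the MTA1 range.

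**Figure D4:**
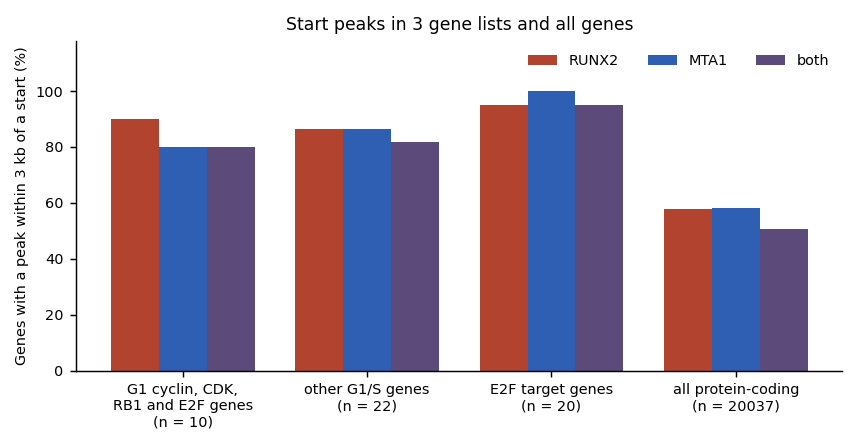
Share of genes with a peak within 3 kb of a start, by gene list. The vertical axis is the percent of genes, starting at 0, for RUNX2, MTA1 and both together. The 10 G1 genes, the 22 other G1/S genes and the 20 E2F targets lie above the 57.9%, 58.0% and 50.7% of all 20037 protein-coding genes.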

How the data were processed

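CUT&Tag peak lists for RUNX2 and MTA1, 1 library each from MDA-MB-231 cells, were analysed. The authors deposited a BED list per library with positions and a score per peak, on a scale that is not stated. Per the submitters' processing notes, CASAVA 1.4, Bowtie 0.12.8, MACS and MACS2 were used, with hg19 named. The positions were nevertheless read as GRCh38, because a RefSeq GRCh38.p14 start was within 1 kb of 17.4% (RUNX2) and 24.3% (MTA1) of peaks, and after a move of 100 kb of 2.92% and 3.03%, on 22 of 22 chromosomes tested. The labels describe adaptor ligation and size selection of ChIP DNA beside a CUT&Tag kit, and name another antibody supplier than the study's methods.

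Gene spans and starts came from RefSeq GRCh38.p14. A start was any promoter-table start or the outer end of the gene on its strand, and either end where no strand was given. Distances run from the centre of a peak, and "within 3 kb" means that any base of the peak lay in that range. Peaks overlapped when they shared at least 1 bp. Rank is the percent of peaks of the same list with a lower score. Peaks were assigned by overlap with the gene extended by 50 kb. Python 3.11.15, numpy 2.4.6, pandas 2.3.3 and scipy 1.17.1 were used, and the overlap code was tested on simulated data. With 1 library per antibody no test between libraries was run.

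All 10 genes were named with the highest-scoring peak of each list and every peak within 3 kb of a start. Of the gene lists, the text names genes with no start peak of either library and the 3 with the highest-ranked start peak in each list, and neighbours where a highest-scoring peak lay in them. Some peaks outside this rule (at TSPAN31, within CCND3 and past E2F3) were picked after their values were seen. The genes and lists were chosen with earlier results of these data known. Alternatives were other windows, score and width limits, merging and stricter overlap.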

Additional observations from a re-analysis of the deposited data

How the results depend on the processing

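No paired analysis was possible because each antibody has 1 library, and for the same reason no replicate could be left out. Of 66 recomputed summary values, 48 stayed within their error or within 1.5 times and 18 moved. Peak counts of single genes were less stable: 68 stayed and 72 moved. RUNX2 and MTA1 peak counts were 44 and 37 with 10 kb flanks, 29 and 25 in the gene spans alone, 46 and 29 among peaks not below their list's median score, and 11 and 16 among the 10000 highest-scoring. With 100 kb flanks there were 97 MTA1 peaks. The median RUNX2 density in gene spans alone was 3.25 per 100 kb, against 2.31 over all genes, with 5 of the 10 genes above that median instead of 8. The shared percentage of MTA1 peaks was 93.1 (whole list 75.8) with the median score as the minimum and 91.5 (list 73.2) for peaks wider than the narrowest. Among the 10000 highest-scoring peaks it was 72.7 for RUNX2 (list 52.4) and 50 for MTA1 (list 52.55), the setting in which the MTA1 share at these genes fell below the list. With 50% reciprocal overlap it was 37.8 for RUNX2 (list 34.9) and 53.1 for MTA1 (list 50.5). Among the 10000 highest-scoring peaks, 4 genes kept a RUNX2 start peak (CCND1, CCND3, CDK4 and E2F3), 6 an MTA1 start peak and 3 both (CCND3, CDK4 and E2F3), against 16.9%, 27.6% and 13.96% of all genes. For CCND1, which had no strand given, the peak kept lay over its higher-coordinate end and none was kept at the lower-coordinate end. CDK6 lost its RUNX2 start peaks at 1 kb and CCNE1 lost both start peaks with the median score as the minimum. The single libraries, the missing controls and the unknown depth limit every count.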
